A study of Homo sapiens with 8 samples.

Results

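The ABC drug efflux transporters examined here are 9 listed genes, ABCB1, ABCB6, ABCC1, ABCC2, ABCC3, ABCC4, ABCC5, ABCC6 and ABCG2, of 19056 named genes with a probe on the array. They were taken by symbol and matched through the transcript that the scanner files list for each probe, and all 9 were found, with 16 probes in all. Gene expression was measured in A549 cells, an established line from a human lung carcinoma, in 2 dose series on single-dye Agilent arrays. In the first series the cells received the vehicle or 1.25, 5 or 20 μg/mL EEDS, an ethanol extract of Descurainia sophia seeds. In the second they received the vehicle or 3.75, 15 or 60 nM helveticoside, a cardiac glycoside found in those seeds. The labels give 48 h of exposure, whereas the study's methods give a shorter one. RNA of 3 cultures was combined for each of the 8 arrays, 1 for every dose and vehicle. A ratio at a single dose therefore has neither a replicate error nor a p-value.

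ABC transporters use ATP to move compounds across membranes. ABCB1, or P-glycoprotein, exports many hydrophobic drugs and carries cardiac glycosides such as digoxin, ABCG2 exports drugs and urate, and most ABCC proteins, also called multidrug resistance-associated proteins, export organic anions and glutathione, glucuronide or sulfate conjugates. Cancer cells that make more of these pumps can become less sensitive to chemotherapy.

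The median probe signal ranged from 182 to 278 intensity units over local backgrounds of 27 to 34, and 54.5% to 64.9% of probes per array were well above background by the scanner software's call. The 8 arrays carried the labelled cell type's markers, since 11 of 12 lung epithelial and A549 markers were well above background on all 8. Among markers of other cell types, PTPRC, CDH5 and COL1A1 were also well above background on all 8, at normalized intensities of 61.7 to 155, 107 to 183 and 154 to 569, COL3A1 was on 1 array, and CD3E, PECAM1, ALB and HBB were on none. PTPRC, CDH5 and COL1A1 stayed within 2-fold of the vehicle at both top doses. Levels below are quantile-normalized intensities with no unit, and ratios are log2 values against the vehicle array of the same series.

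In short, no transporter was more than 2-fold higher at any dose by its brightest probe. At the top doses 15.4% and 11.5% of all genes measured were. At 20 μg/mL EEDS 3 of 8 measured members, ABCC3, ABCC5 and ABCC6, were more than 2-fold lower, against 16.8% of all genes. At 60 nM helveticoside 3 of 8, ABCC5, ABCC6 and ABCG2, were, against 14.1%. The calls of ABCC3 and ABCG2 did not hold under every setting. By their brightest probes, ABCC5, which exports cyclic nucleotides, and ABCC6, which is known for its part in ATP release from liver, were lower with both agents. A dimmer ABCC5 probe and the ABCC6 probe listed for the full-length transcript stayed within 2-fold at both top doses. ABCC3, an exporter of bile acids and glucuronides, had 2 probes that moved in opposite directions. ABCB1 was not well above background on any array, and ABCB6, ABCC1, ABCC2 and ABCC4 stayed within 2-fold of the vehicle at every dose.

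The promoters of ABCC5 and ABCC6 are shown because these are the members whose brightest probes were more than 2-fold lower at both top doses. The table of RefSeq promoters (build GRCh38.p14) held 13 windows for 7 of the 9 members. Each sequence is the 250 bases before a start on the minus strand, 5′ to 3′, from chr3:184017885-184018134 for ABCC5 and chr16:16223472-16223721 for one of the ABCC6 starts. Capitals mark matches on either strand to 6 motifs: the TATA box TATAAA, the CCAAT box in the form CCAAT, the GC box GGGCGG, the E-box CACGTG, TGACNNNGC, which is the core of the antioxidant response element, and TGANTCA, the AP-1 site.
ABCC5: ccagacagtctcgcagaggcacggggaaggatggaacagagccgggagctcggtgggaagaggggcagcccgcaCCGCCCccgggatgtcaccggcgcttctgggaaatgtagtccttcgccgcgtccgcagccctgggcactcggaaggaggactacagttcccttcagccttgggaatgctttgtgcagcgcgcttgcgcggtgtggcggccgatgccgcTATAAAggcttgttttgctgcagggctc
ABCC6: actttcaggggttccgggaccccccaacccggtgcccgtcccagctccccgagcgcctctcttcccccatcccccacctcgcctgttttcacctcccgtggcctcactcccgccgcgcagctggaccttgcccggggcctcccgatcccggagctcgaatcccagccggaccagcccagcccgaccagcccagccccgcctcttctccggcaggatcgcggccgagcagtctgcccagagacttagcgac
The ABCC5 window held TATAAA 28 bases before the start and GGGCGG, read on the other strand, 176 bases before it. Of 35116 promoter windows of this length, 10.7% held TATAAA and 42.6% held GGGCGG. Neither ABCC6 window held any of the 6 motifs, and their GC content was 70.8% and 71.2% against 64.8% for ABCC5 and a median of 58% over all windows. ABCC6 lies on chromosome 16 with 1 gene between it and ABCC1, in RefSeq's gene order.

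ABCB1 was represented by 2 probes, and neither was well above background on any of the 8 arrays. Its brighter probe read 9.5, 9.6, 9.6 and 9.8 from the EEDS vehicle to 20 μg/mL, and 11.5, 14.0, 10.4 and 11.3 from the helveticoside vehicle to 60 nM. The lowest level of any probe that was well above background was 23.5 to 28.0 on the EEDS arrays and 37.3 to 62.2 on the helveticoside arrays, so all 8 ABCB1 readings lay under it. The second probe was printed as 10 spots, of which 8 to 10 were used per array and 0 were well above background. A change in ABCB1 could therefore not be measured in these arrays at any dose, and no ratio is given.

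**Figure D1:**
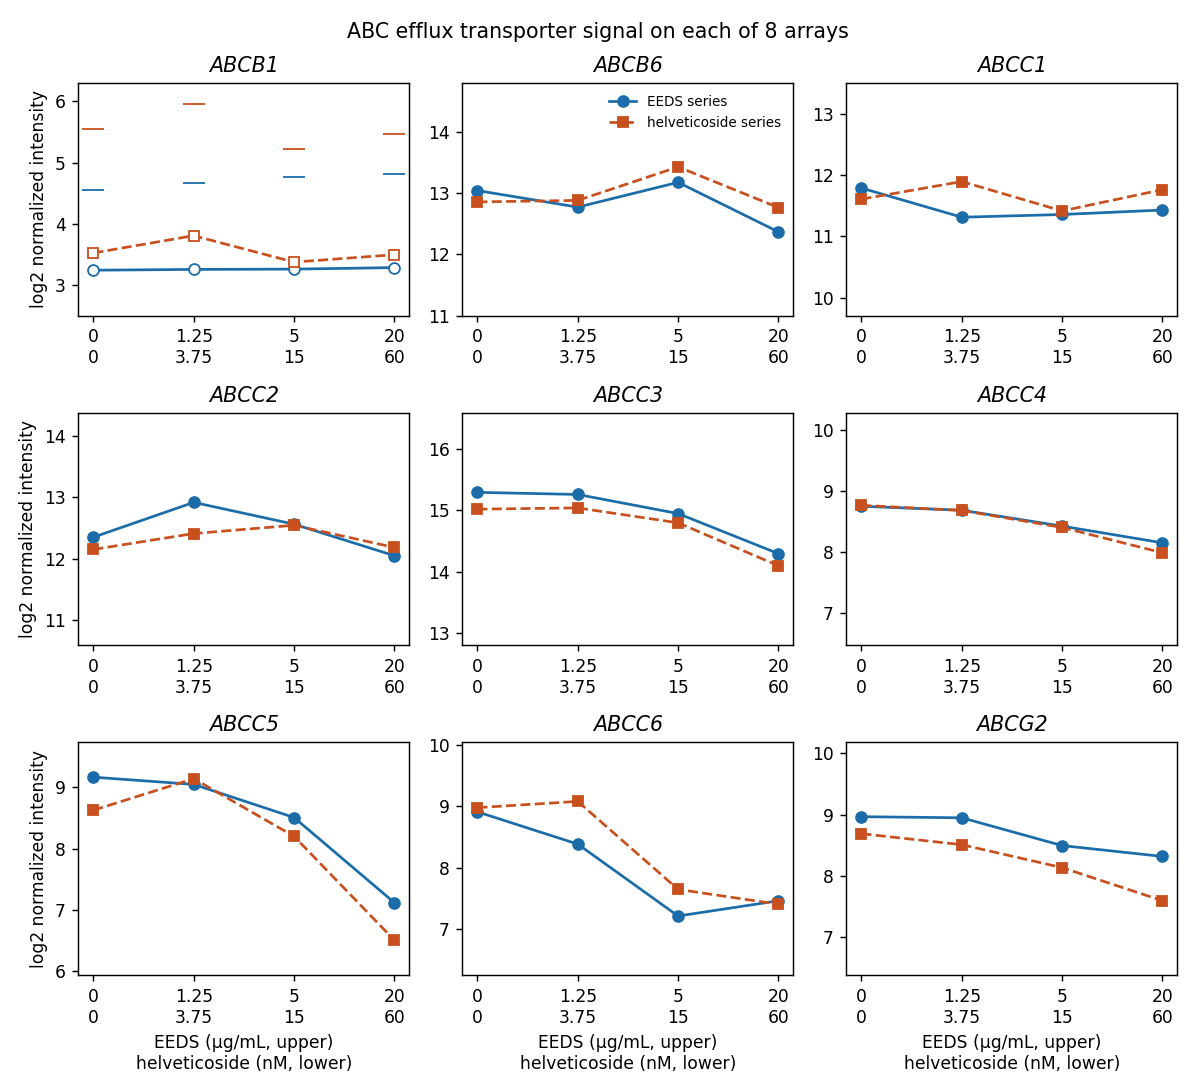
Log2 normalized intensity of the brightest probe of each of the 9 transporters on the 8 arrays, 1 point per array, against dose (EEDS in μg/mL on the upper row of labels, helveticoside in nM on the lower row); every panel spans the same log2 range. Open points for ABCB1 were not well above background, and the short horizontal marks are each array's lowest level that was; ABCC5 and ABCC6 show the largest falls at the top doses.

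ABCC1, the first multidrug resistance-associated protein described, exports glutathione conjugates. Its level was 3538, 2544, 2624 and 2759 from the EEDS vehicle to 20 μg/mL, and 3122, 3809, 2731 and 3476 from the helveticoside vehicle to 60 nM. All 3 EEDS arrays were below their vehicle, by 0.36 to 0.48 on the log2 scale, whereas the helveticoside arrays lay on both sides of theirs. ABCC2, which carries conjugates across apical membranes, read 5214, 7731, 6040 and 4229 in the EEDS series and 4540, 5434, 5967 and 4640 in the helveticoside series. ABCC2 was highest at 1.25 μg/mL EEDS, at a log2 ratio of 0.57, and below the vehicle at 20 μg/mL, at -0.30. ABCB6, a porphyrin transporter, read 8439, 6994, 9261 and 5287 with EEDS and 7424, 7549, 11031 and 6963 with helveticoside. Its readings were highest at the middle dose of each series, and its largest ratio was -0.67 at 20 μg/mL EEDS.

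ABCC4, which exports cyclic nucleotides and prostaglandins, changed in small steps. Its level was 430, 411, 344 and 285 from the EEDS vehicle to 20 μg/mL, and 435, 410, 339 and 254 from the helveticoside vehicle to 60 nM. Each dose was below the previous one in both series, and the top-dose ratios of -0.60 and -0.77 were within 2-fold. The vehicle arrays of the 2 series differed by 0.015 for this gene.

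ABCG2 showed the same order of doses. It read 500, 494, 361 and 319 in the EEDS series and 412, 364, 281 and 193 in the helveticoside series, so every higher dose was lower than the one before. The ratio was -0.65 at 20 μg/mL EEDS and -1.09 at 60 nM helveticoside. The second value passed 2-fold, but it was -0.63 with the signal as scanned, -0.63 with normexp background correction and -0.55 in the authors' deposited values, and so within 2-fold under each of these.

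ABCC5 fell at both top doses. Its brightest probe, listed for transcript NM_005688, read 575, 529, 364 and 139 from the EEDS vehicle to 20 μg/mL, and 395, 565, 294 and 90.8 from the helveticoside vehicle to 60 nM. The top-dose array was the lowest in each series, at 4.14-fold and 4.35-fold below its vehicle (log2 ratios of -2.05 and -2.12), while the arrays at the lowest doses differed from theirs by -0.12 and 0.51. These top-dose ratios ranged from -2.47 to -1.58 with EEDS and from -2.13 to -1.33 with helveticoside over the other background corrections and scalings. The 2 vehicle arrays differed by -0.54 for this probe, the widest gap between vehicles among the 8 measured members.

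The other probes of ABCC5 did not move alike. Both are listed for NM_001023587, a shorter transcript. Probe sequences were not used here, so which transcripts of ABCC3, ABCC5 and ABCC6 a probe reads rests on the accession listed for it alone. Probe A_33_P3298062 read 398, 404, 260 and 60.3 with EEDS and 273, 265, 195 and 47.1 with helveticoside, and it was 6.60-fold lower at 20 μg/mL and at least 5.80-fold lower at 60 nM, where it was not well above background. These sizes depended on the background correction and scaling, over which its ratio ranged from -3.26 to -1.61 at 20 μg/mL and from -2.55 to -1.07 at 60 nM. Probe A_33_P3298057 read 85.1, 89.1, 53.8 and 57.6 with EEDS and 90.9, 116.5, 82.0 and 75.6 with helveticoside, with top-dose ratios of -0.56 and -0.27. Both of these ratios were within 2-fold, and the scanned signal of this probe was 3.92 to 6.96 times its local background.

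ABCC6 fell from the middle doses on by its brightest probe, which is listed for NM_001079528. The level was 480, 334, 148 and 176 from the EEDS vehicle to 20 μg/mL, and 504, 541, 200 and 169 from the helveticoside vehicle to 60 nM. The log2 ratio was -1.70 at 5 μg/mL and -1.45 at 20 μg/mL EEDS, and it was -1.33 at 15 nM and -1.58 at 60 nM helveticoside. ABCC6 was thus the single member more than 2-fold lower at the middle dose of each agent, and the 2 highest doses of a series lay close together. In the authors' deposited values the ratio at 15 nM was -0.94, within 2-fold.

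With the processed signal and quantile normalization over 8 arrays, all 3 probes listed for NM_001079528, a short ABCC6 transcript, were more than 2-fold lower at both middle doses. Probe A_33_P3385266 read 233, 191, 69.6 and 93.2 with EEDS, and it was at least 4.29-fold lower at 15 nM and at least 4.85-fold lower at 60 nM helveticoside. Over the other background corrections and scalings its ratio ranged from -2.06 to -0.95 at 5 μg/mL, from -2.01 to -1.05 at 15 nM and from -2.59 to -0.87 at 60 nM, so neither the bounds nor every 2-fold call held. Probe A_33_P3298043 had ratios of -1.07 at 5 μg/mL and -0.78 at 20 μg/mL EEDS, and was at least 2.17-fold lower at 15 nM and at least 1.82-fold lower at 60 nM. Its ratio ranged from -1.48 to -0.40 at 5 μg/mL and from -1.31 to -0.57 at 15 nM in the same way, within 2-fold at the upper ends. With EEDS, each of the 3 probes for this transcript was lowest at the middle dose. The probe listed for the full-length transcript, NM_001171, read 55.7, 53.3, 40.3 and 36.5 with EEDS and 67.6, 48.6, 34.3 and 63.3 with helveticoside, the readings at 3.75 and 15 nM not being well above background. Its ratio was -0.61 at 20 μg/mL EEDS and -0.094 at 60 nM, both within 2-fold. This probe was printed as 10 spots, whose log2 signals had an SD of 0.082 to 0.70 on an array. ABCC6 has near-identical pseudogene copies, and signal shared with them was not tested, so its values are uncertain.

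The 2 probes of ABCC3 gave opposite readings. The probe listed for the full-length transcript, NM_003786, read 40131, 39180, 31563 and 20056 from the EEDS vehicle to 20 μg/mL, and 33175, 33656, 28425 and 17494 from the helveticoside vehicle to 60 nM. It was lowest at the top dose of each series, with ratios of -1.001, just past 2-fold, and -0.92, just short of it. The EEDS value was within 2-fold under several settings, at -0.77 with scaling to the 75th percentile, -0.96 with quantile normalization within each series and -0.73 against the vehicle of the other series, and it was 0.30 with the mean of both probes.

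The second ABCC3 probe, A_33_P3298024, is listed for NM_001144070, a shorter transcript. It read 2114, 3182, 8040 and 6384 with EEDS and 1694, 2270, 6741 and 7261 with helveticoside, so every treated array was above its vehicle. The ratios were 0.59, 1.93 and 1.59 at 1.25, 5 and 20 μg/mL EEDS and 0.42, 1.99 and 2.10 at 3.75, 15 and 60 nM helveticoside. Over the other background corrections and scalings the top-dose ratio ranged from 1.48 to 1.79 with EEDS and from 1.94 to 2.28 with helveticoside. The vehicle arrays differed by -0.27 and -0.32 for the 2 probes. The gap between their ratios was 2.59 log2 units at 20 μg/mL EEDS and 3.02 at 60 nM. Of 2577 genes with several probes well above background on these 4 arrays, 35 (1.36%) had probes more than 4-fold apart at both top doses, and ABCC3, singled out after its values were seen, was one.

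**Figure D2:**
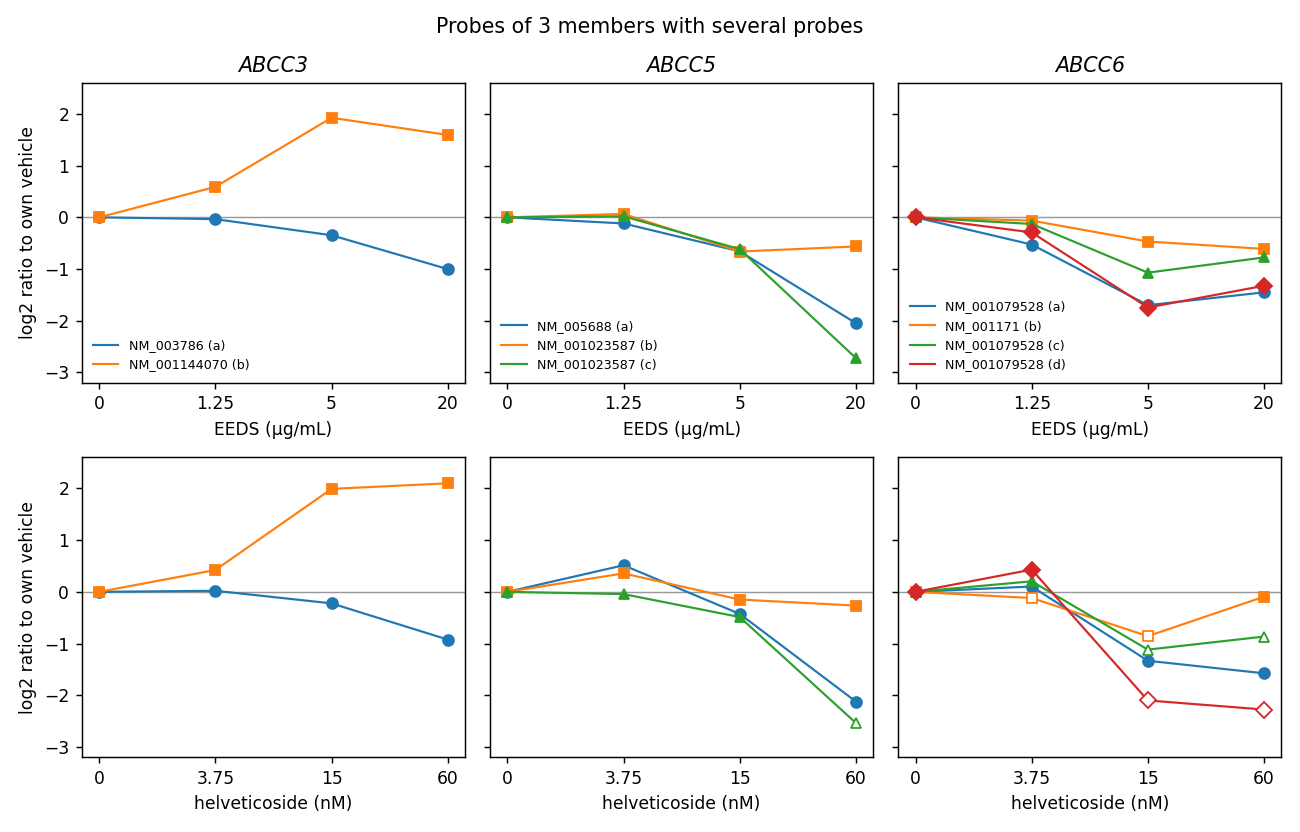
Log2 ratio to the vehicle of the same series for every probe of ABCC3, ABCC5 and ABCC6 against EEDS in μg/mL (upper row) or helveticoside in nM (lower row); each line is a probe, named by its listed transcript, each point is 1 array, and open points are bounds. The ABCC3 probe for NM_001144070 rises to 1.59 and 2.10 at the top doses while that for NM_003786 falls to -1.001 and -0.92.

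Counted by the brightest probe, 8 of the 9 transporters could be measured at every dose. None passed 2-fold in either direction at 1.25 μg/mL EEDS or 3.75 nM helveticoside, where 3.37% and 1.67% of all genes measured were more than 2-fold lower and 4.27% and 1.86% more than 2-fold higher. ABCC6 alone was lower at 5 μg/mL and at 15 nM, against 9.0% and 7.84% of all genes. At 20 μg/mL EEDS, ABCC3, ABCC5 and ABCC6 were lower, 3 of 8 against a background of 16.8%, and at 60 nM helveticoside, ABCC5, ABCC6 and ABCG2 were lower, 3 of 8 against 14.1%. ABCC5 and ABCC6 were lower at both top doses, 2 of 8 against 11.9%. None was more than 2-fold higher at the middle doses (8.04% and 6.13% of all genes) or the top doses (15.4% and 11.5%). The median ratio of the members was -0.092, -0.39 and -0.66 at the rising EEDS doses and 0.064, -0.29 and -0.85 at the rising helveticoside doses, while that of all genes lay between -0.012 and 0.031. Quantile normalization over the arrays holds the median of all genes near 0. With scaling to the 75th percentile that median was -0.36 at 20 μg/mL EEDS and -0.18 at 60 nM helveticoside. Between the 2 vehicle arrays no member differed by more than 2-fold, against 6.20% of all genes.

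Dose slopes, fitted with limma over all 8 arrays, measure how far the log2 level moved per dose step against the scatter about a straight line. ABCG2 with helveticoside had a slope of -0.37 ± 0.067 per step (SE, adjusted p = 0.0318 by limma). It was the single slope to pass the threshold among the 16 of measured members. Of all genes fitted, 5.80% had a called falling slope with helveticoside and 7.85% with EEDS (5.48% and 7.27% a rising one). The genes fitted include ones not well above background, so these shares are not like for like with the measured members. The adjusted p of the ABCG2 slope with helveticoside ranged from 0.0242 to 0.195 over 10 other settings on all 8 arrays. It was under the threshold in 7, the exceptions being the signal as scanned, normexp correction and the deposited values. In these the slope was -0.21, -0.21 and -0.19. Most of the 7 left the levels of ABCG2, and so its slope, unchanged. They could alter only the shared variance or the genes adjusted over, and so tested the call little. Of the settings that changed its levels, the slope passed only with quantile normalization within each series (-0.34) and with percentile scaling (-0.38). The EEDS slope of ABCG2 was -0.24 ± 0.067 (adjusted p = 0.0682).

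The slopes of ABCC3, ABCC4, ABCC5 and ABCC6 were below 0 with both agents, but none passed in the main fit. Those calls also depended on the setting. Over the 10 other settings on all 8 arrays, the EEDS slope passed in 4 for ABCC3, 0 for ABCC4, 1 for ABCC5 and 3 for ABCC6. The helveticoside slope passed in 1, 1, 1 and 4. For ABCC4 they were -0.21 with EEDS (adjusted p = 0.0761) and -0.26 with helveticoside (adjusted p = 0.0514). For ABCC3 they were -0.33 and -0.30 (adjusted p = 0.0721 and 0.104). The slopes of ABCC5 and ABCC6 were steeper but had wider errors. They were -0.67 and -0.73 for ABCC5 (adjusted p = 0.129 and 0.123). For ABCC6 they were -0.55 and -0.62 (adjusted p = 0.0889 and 0.0801). The SE was 0.061 for ABCC4 and 0.25 for ABCC5, whose change was mostly at the top dose. With 1 slope for both series, which averages the 2 agents, 5 of the 8 measured members had called falling slopes. They were -0.32, -0.23, -0.70, -0.58 and -0.30 per step for ABCC3, ABCC4, ABCC5, ABCC6 and ABCG2 (adjusted p from 0.0050 to 0.0181 by limma). Of all genes fitted, 17.0% had a called falling common slope. That share is not like for like, since the genes fitted include ones not well above background, such as ABCB1. ABCC3 is counted here by its brightest probe, and its other probe had a called rising common slope when fitted by probe.

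The other 3 measured members had slopes near 0. The 95% intervals with EEDS were -0.52 to 0.19 for ABCB6, -0.34 to 0.14 for ABCC1 and -0.45 to 0.20 for ABCC2, and with helveticoside -0.33 to 0.38, -0.24 to 0.24 and -0.30 to 0.35. The EEDS intervals of ABCB6 and ABCC2 contain the helveticoside slope of ABCG2, and that of ABCC1 does not. No difference between the agents' slopes passed for a measured member (adjusted p = 1 in each), and over all 19046 genes 0 did by the adjusted p and 525 (2.76%) by an unadjusted one. For ABCG2 the difference, helveticoside minus EEDS, was -0.13 with an interval of -0.36 to 0.11. Each agent has its own arrays and its own vehicle, so agent and series cannot be told apart, and the doses of an extract in μg/mL and of a compound in nM are not matched.

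**Figure D3:**
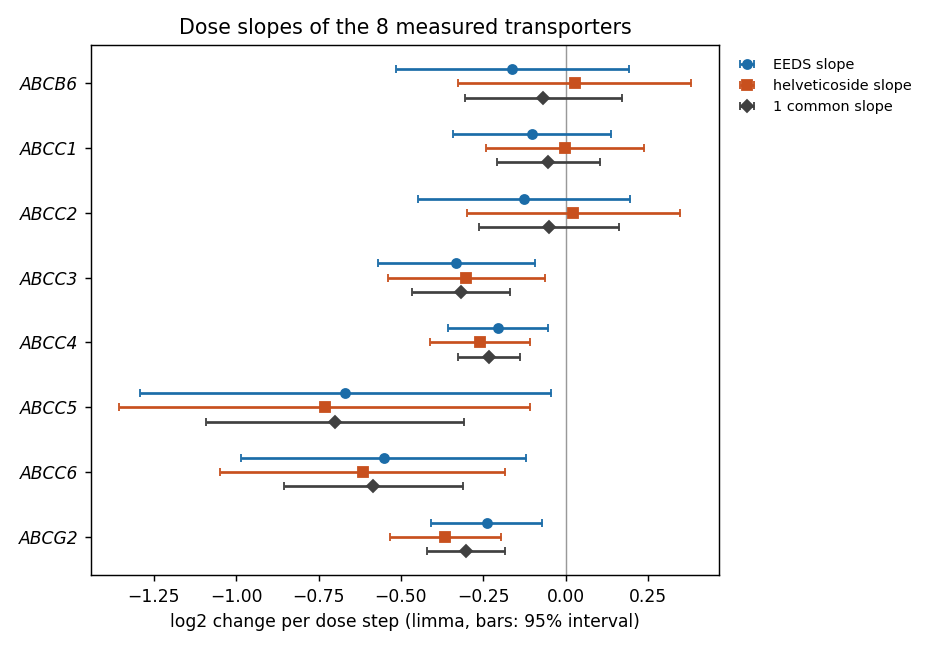
Log2 change per dose step of the 8 measured transporters (horizontal axis) with EEDS, with helveticoside and as 1 common slope for both series; bars are 95% intervals from limma. The ABCC5, ABCC6, ABCC3, ABCC4 and ABCG2 points lie below 0 for all 3, while those of ABCB6, ABCC1 and ABCC2 have intervals that cross 0.

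The opposite movement of the 2 ABCC3 probes was then fitted by probe. With each probe fitted on its own, the probe listed for NM_001144070 had slopes of 0.61 ± 0.18 with EEDS and 0.79 ± 0.18 with helveticoside (SE, adjusted p = 0.0915 and 0.0631 by limma), neither called; in that fit 5.25% and 3.57% of probes had a called rising slope with EEDS and helveticoside, and 5.39% and 3.44% a falling one. With 1 slope for both series, a setting added after its values were seen, it rose by 0.70 ± 0.12 per step (adjusted p = 0.0085) and the probe for NM_003786 fell by 0.32 ± 0.062 (adjusted p = 0.0126). With 1 common slope, 13.0% of 34086 probes had a called rising and 13.1% a called falling slope. The ABCC6 and ABCC5 probes also differed among themselves in that fit, and those differences were not tested. The 3 ABCC6 probes for NM_001079528 fell by 0.43 to 0.79 per step (adjusted p from 0.0120 to 0.0498), and the probe for NM_001171 had a slope of -0.15 (adjusted p = 0.375). Of the ABCC5 probes, those that were brightest and second brightest fell by 0.70 and 0.84 (adjusted p = 0.0223 and 0.0196), and A_33_P3298057 had a slope of -0.19 (adjusted p = 0.139).

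Some other genes followed the members closely over the 6 ratios. Among 3914 genes well above background on all 8 arrays and more than 2-fold changed at a top dose, the highest Pearson r to ABCC3 was that of MPG, DPH5 and CUL9, at 0.998 each. For ABCC5 the closest were MAGEH1, TCEA2 and ZCCHC24, at 0.998, 0.998 and 0.996. For ABCC6 they were ACY1, TMEM141 and DHCR7, at 0.999, 0.997 and 0.996, and for ABCG2 they were ZNF277, FAAP100 and MCF2L, at 0.989, 0.989 and 0.986. The genes nearest to ABCC3 and ABCC5 were, like them, lowest at the top doses. DHCR7, which catalyses the last step of cholesterol synthesis, had ratios of -1.70 and -1.30 at 5 and 20 μg/mL EEDS and -1.32 and -1.55 at 15 and 60 nM helveticoside. As with ABCC6, most of its change was present at the middle dose. These shared dose shapes follow from choosing the genes by r and are not separate observations. Each r rests on 6 points that share 2 vehicle arrays, and is a description.

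The rest of the ABC family moved in both directions. Of 39 other ABC genes listed, 38 were on the array, 19 were well above background on all arrays and 15 on none. At 20 μg/mL EEDS 2 of the 22 measured passed 2-fold upward and 4 downward, and at 60 nM helveticoside 4 of 21 were higher and 3 lower, with medians of 0.47 and 0.15. Dose slopes passed for 3 rising and 5 falling genes of this list with EEDS, and for 2 and 3 with helveticoside. Over all genes fitted, 7.27% had a called rising and 7.85% a called falling slope with EEDS, and 5.48% and 5.80% with helveticoside. ABCA3, which loads surfactant lipids into the lamellar bodies of alveolar cells, fell to log2 ratios of -3.18 and -3.03 at the top doses of EEDS and helveticoside, and its dose slope passed with both agents (adjusted p = 0.0145 and 0.0185 by limma). ABCA7, a phospholipid transporter, fell to -1.79 and -1.95. TAP1, a subunit of the peptide pump that serves antigen presentation, rose to 1.51 and 1.78, and ABCE1, a ribosome recycling factor, to 1.28 and 1.02.

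**Figure D4:**
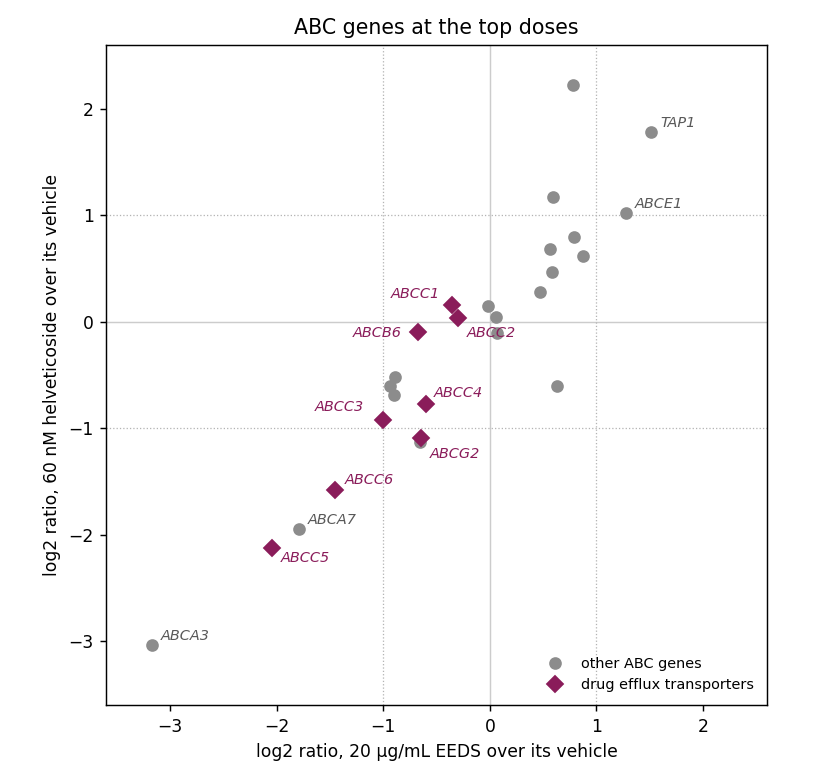
Log2 ratio at 60 nM helveticoside against that at 20 μg/mL EEDS for the 27 ABC genes well above background on all 4 arrays concerned, 8 of them drug efflux transporters (diamonds); each point is a gene and the dotted lines mark 2-fold. ABCC5 and ABCC6 lie in the lower left with the other ABC genes ABCA3 and ABCA7, ABCB6, ABCC1 and ABCC2 near the centre, and TAP1 and ABCE1 in the upper right.

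Genes that work with these pumps were counted from lists. The counts below stand beside the shares of all genes measured. At 20 μg/mL EEDS 15.4% of these were more than 2-fold higher and 16.8% lower, and at 60 nM helveticoside 11.5% and 14.1%. Of 32 transcription regulators of drug efflux genes, 7 of 28 measured passed 2-fold upward and 1 downward at 20 μg/mL EEDS, and 7 of 27 were higher and 0 lower at 60 nM; the AP-1 factor JUN rose to log2 ratios of 3.52 and 2.97. Of 24 genes of glutathione and conjugate supply, whose products several ABCC proteins export, 20 were on the array, and 3 and 5 of 19 measured were lower at the top doses of EEDS and helveticoside and none higher. GCLC, the catalytic subunit of the rate-limiting enzyme of glutathione synthesis, fell to -1.47 and -1.55, and GSR, which regenerates reduced glutathione, to -1.24 and -1.08. Of 14 membrane partners and traffic factors, 3 were higher and 4 lower with EEDS, and 1 higher and 3 lower of 13 with helveticoside. Among them NHERF1, a scaffold that binds the ends of ABCC2 and ABCC4, fell to -1.86 and -1.77. Of 25 drug and organic anion uptake carriers, 2 of 13 measured were higher and 3 lower with EEDS, and 4 of 11 were higher and 2 lower with helveticoside, and SLC22A5, the carnitine carrier, rose to 1.73 and 2.37. Of the lung epithelial and A549 markers, 3 of 12 and 5 of 11 were more than 2-fold lower at the top doses and none higher, and their part in the members' ratios was not tested. In these pooled RNA samples, fewer cells of a kind and less RNA per cell cannot be told apart.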

How the data were processed

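RNA from A549 cells was hybridized to 8 one-colour Agilent arrays, 1 per dose. The authors deposited, for each spot, the scanner software's intensity values, which are the processed (background-subtracted) signal, the median signal and local background, with its outlier, saturation and well-above-background calls. Spots called outliers (246 to 331 per array) were left out, 0 were saturated, and the processed signal was averaged per probe, quantile-normalized over the 8 arrays and put on the log2 scale. The authors' own table of processed intensity was an alternative.

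The files name no genome build; probes were named through GRCh38.p14 transcripts. The probe with the highest mean stood for a gene with several. Where an array was not well above background, it was set to the higher of its value and the lowest level well above background there, and the ratio is a bound. A change past 2-fold counts as called, with no test.

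Slopes per dose step (limma 3.58.1, R 4.3.3, trend and robust estimation, 4 residual degrees of freedom) were adjusted over 19046 genes (Benjamini-Hochberg, threshold 0.05), after a filter of 1.4 times the local background on at least 1 array in both series. On simulated data with EEDS doses and 200 changed genes of 19046, 110 were called and 104 of these were changed; 75% of slopes of 1 and 29% of slopes of 0.5 were found. Python 3.11.15, numpy 2.4.6 and pandas 2.3.3 gave the other values. The number of arrays limits the precision.

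The members, lists and alternatives were chosen with earlier results of these data known. All 9 members were named, with every probe; of other lists, the genes well above background on the vehicle and top-dose arrays of both series and more than 2-fold changed one way at both top doses were named, at most 8 a list; not all of these are given here. Likeness was ranked by Pearson r over the 6 ratios. Slide and scan batches were not analysed here. The value of 1 listed marker is not reported here.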

Additional observations from a re-analysis of the deposited data

How the results depend on the processing

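With 1 array per dose, every count below rests on single arrays, and low signals limit ABCB1 and the dimmer probes of ABCC5 and ABCC6. No paired analysis was possible because each dose has 1 array. With calls at 1.5-fold, 2, 6 and 5 members were lower at 5 μg/mL EEDS, 20 μg/mL EEDS and 60 nM helveticoside. At 3-fold 1, 0 and 1 were lower at 20 μg/mL, 15 nM and 60 nM. Shares of all genes at 1.5-fold and 3-fold are not given here. These counts therefore have no background and cannot be set against the 2-fold shares. In the authors' deposited values, with calls at 2-fold, 0 were lower at 15 nM. The 3 members lower at 20 μg/mL EEDS became 2 with 75th percentile scaling or quantile normalization within each series. They were also 2 with the mean of all probes or the other series' vehicle. At 60 nM helveticoside 3 became 2 with the signal as scanned, normexp or the deposited values, and 4 with the other series' vehicle. Scaling to the 75th percentile moved the median ratio of all genes to -0.20, -0.21 and -0.36 with EEDS and to 0.14, -0.12 and -0.18 with helveticoside.

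The number of members with a called falling EEDS slope (0) became 1 with the signal as scanned or 75th percentile scaling, 2 with normexp, the deposited values or genes well above background on all arrays, and 5 with a common slope. For helveticoside (1) it became 2 with the 75th percentile scaling or no trend, 4 with genes well above background on all arrays, and 5 with a common slope. It became 0 with the deposited values, 1 series alone, no lowest doses, no middle doses or log2 dose. Those last 4 fits called 0 of all genes, and the common slope called 17.0% falling. For the other settings the share of all genes called is not given here. Their counts therefore cannot be read as a result about the members. The ABCC3 ratio at 20 μg/mL EEDS turned to 0.30 with the mean of its probes, and its slopes to 0.14 and 0.24, and to 0.61 and 0.79 with its second probe. Uncalled slopes near 0 also changed sign. With helveticoside, ABCB6 had -0.0348 without the middle doses, -0.0292 with log2 dose and -0.0675 with a common slope, and ABCC2 had -0.00726, -0.0570 and -0.0516 in those fits. ABCC1 with helveticoside had 0.00739 as scanned, 0.00695 with normexp, 0.0605 with the 75th percentile, 0.00636 in the deposited values, 0.0306 without the lowest doses and 0.0349 without the middle doses, and with EEDS 0.0293 with log2 dose. The causes were not tested.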
